A study of Mus musculus with 6 samples.

Results

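Cholesterol handling in the villus was described through 8 genes. *Srebf2* is the gene of the sterol-regulated transcription factor SREBP2. *Hmgcs1*, *Idi1*, *Fdps*, *Sqle* and *Cyp51* encode enzymes of cholesterol synthesis. *Npc1l1* encodes the apical transporter that takes up cholesterol, and *Abca1* a transporter that exports it. The 8 genes were picked by symbol, through the Ensembl identifiers of the count table, which lists 20409 features. An identifier was matched for 7 of the 8 genes, and all 7 were among the 13346 genes that passed the filter on low counts. *Hmgcs1* was not matched to an identifier and its expression was not analysed here. Another 59 genes of the pathway, on fixed lists, are described around them.

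Duodenal villus epithelium was collected from 3 double mutant mice and 3 wild-type mice, and polyadenylated RNA was sequenced as 1 library per mouse. The double mutant carries a loss of function of *Smad4* (Smad4 fl/fl) and a gain of function of β-catenin (a floxed exon 3 of 1 *Ctnnb1* allele), on a C57BL6-enriched background. Both alleles are recombined by Villin-CreERT2, a Cre that tamoxifen activates in the intestinal epithelium as a whole. Tamoxifen was injected 4 times at 0.05 g/kg, and the villi were taken 7 days after induction. The wild-type mice were uninjected littermates, so the injections and the mutations cannot be told apart. Each group held 1 male (replicate 1) and 2 females (replicates 2 and 3), with ages matched but not stated in the sources used here.

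The libraries held 19678507 to 26337318 counted reads, so that the smallest level the depth can show (3 counts) was 0.125 to 0.163 CPM, a limit that covers counting error only. CPM are counts relative to the library total, scaled here by edgeR's TMM factors. *Smad4*, the inactivated gene, had 120, 180 and 145 CPM in wild-type villi and 26.1, 36.8 and 32.1 CPM in double mutant villi. Its log2 fold change was -2.22 ± 0.19 (standard error, adjusted p = 0.000145, edgeR's quasi-likelihood test). *Ctnnb1* differed by -0.15 ± 0.12 (adjusted p = 0.359), and a count per gene does not show the loss of 1 exon. The summed level of 12 enterocyte markers was 48380 to 56840 CPM in wild-type and 29010 to 29900 CPM in double mutant villi. Of these markers, 8 were called lower by the same test, 1 was called higher and 3 were not called. The sum of 10 stem and progenitor markers was 58.7 to 173 CPM in wild-type and 402 to 501 CPM in double mutant villi. Of those, 7 were called higher and 3 were not called. The sum of 5 tuft cell markers was 82.6 to 111 and 11.9 to 13.4 CPM. Wild-type mouse 1 stood apart, with 125 CPM on 7 goblet markers and 6.54 CPM on 4 Paneth markers, against 11020 to 11600 and 749 to 1153 CPM in the other wild-type mice. In double mutant villi these sums were 4659 to 5057 CPM for goblet and 131 to 185 CPM for Paneth markers. Markers of mesenchyme summed to 0.29 to 0.87 CPM in wild-type and 0.95 to 4.37 CPM in double mutant villi. In these bulk libraries, fewer cells of a type and less RNA per cell cannot be told apart. Across all genes tested, 36.8% passed an adjusted p of 0.05 (19.7% higher and 17% lower in the double mutant), and the groups did not overlap for 52.4%. Higher genes made up 53.7% of these calls, and 72.4% when libraries were scaled by their totals alone, which moved the median log2 fold change of all genes from 0.02 to 0.22.

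Enterocytes obtain cholesterol by several routes. They absorb it from the lumen through NPC1L1, take up lipoproteins, and make it from acetyl-CoA by way of mevalonate, squalene and lanosterol. When sterols in the endoplasmic reticulum run low, SCAP carries SREBP2 to the Golgi, where it is cleaved, and the released part activates the genes of synthesis. When sterols are plentiful, INSIG proteins hold SREBP2 back, and oxysterols activate the LXR receptors, which induce exporters such as ABCA1 and the ABCG5 and ABCG8 pair.

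The promoter letters are shown because this is the sequence through which SREBP2 and its partners are known to act. RefSeq promoter windows of GRCm38.p6 (250 bases before to 50 after the start of the gene) were matched for *Srebf2*, *Hmgcs1*, *Idi1*, *Cyp51*, *Npc1l1* and *Abca1*, and none for *Sqle* or *Fdps*. Both strands were searched for an SREBP consensus (TCACNCCAC, exact or with 1 mismatch), the CCAAT box (CCAAT, bound by NF-Y), the GC box (GGGCGG, bound by Sp1), the E-box (CACGTG) and the LXR element DR4. The bases just upstream of the start follow, 5′ to 3′ on the strand of the gene, with every match in capitals. The capitals mark the SREBP consensus with 1 mismatch, CCAAT boxes and GC boxes in *Srebf2* and *Cyp51*, CCAAT and GC boxes in *Idi1*, a CCAAT box in *Npc1l1*, and an E-box and GC boxes in *Abca1*.
Srebf2, chr15:82147099-82147268, plus strand: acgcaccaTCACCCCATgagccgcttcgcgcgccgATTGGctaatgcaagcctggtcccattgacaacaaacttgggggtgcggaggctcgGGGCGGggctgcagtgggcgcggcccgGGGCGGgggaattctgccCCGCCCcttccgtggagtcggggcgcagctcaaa
Cyp51, chr5:4104698-4104837, minus strand: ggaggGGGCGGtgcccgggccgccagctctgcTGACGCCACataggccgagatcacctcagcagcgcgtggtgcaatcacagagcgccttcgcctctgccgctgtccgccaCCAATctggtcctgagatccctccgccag
Idi1, chr13:8885526-8885605, plus strand: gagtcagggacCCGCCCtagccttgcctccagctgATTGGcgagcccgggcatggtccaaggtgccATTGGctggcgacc
Npc1l1, chr11:6230246-6230325, minus strand: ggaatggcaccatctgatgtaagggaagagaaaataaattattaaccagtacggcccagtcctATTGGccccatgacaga
Abca1, chr4:53159896-53160065, minus strand: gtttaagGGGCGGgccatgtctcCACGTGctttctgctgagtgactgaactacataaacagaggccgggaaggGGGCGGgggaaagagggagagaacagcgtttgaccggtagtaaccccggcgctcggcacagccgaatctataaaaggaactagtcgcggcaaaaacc

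The near-match of *Srebf2* (TCACCCCAT) lies 162 bases before its start and is followed by an inverted CCAAT box at -135 and GC boxes at -79, -52 and -34. That of *Cyp51* (TGACGCCAC) lies at -108, with a GC box at -135 and a CCAAT box at -29. *Hmgcs1* holds the exact consensus (TCACCCCAC) at -137. *Idi1* and *Npc1l1* have no SREBP match in these windows. *Abca1* has an E-box at -147 but neither an SREBP match nor an exact DR4. An exact DR4 is rare among all promoters, and looser forms were not searched. Its absence thus does not show that an LXR element is missing. Of 32851 mouse promoter windows, 1.24% hold the exact consensus, 24.2% hold it with at most 1 mismatch, 37.4% a CCAAT box, 35.7% a GC box, 7.15% the E-box and 0.0152% a DR4. Among the 19 windows of 16 synthesis genes, 7 hold the SREBP consensus with at most 1 mismatch, 15 a CCAAT box and 16 a GC box. The matches are counts of letters and not measured binding.

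The gene of the regulator was higher in the double mutant. *Srebf2* (ENSMUSG00000022463, chromosome 15 of mm9, 81977696 to 82035806, plus strand) had 128, 153 and 132 CPM in wild-type mice 1 to 3 and 272, 268 and 272 CPM in double mutant mice 1 to 3. Every double mutant mouse lay above every wild-type mouse, with a gap of 114 CPM. The log2 fold change was 0.98 ± 0.11 (standard error, n = 3 mice per group, adjusted p = 0.000439 by edgeR's quasi-likelihood test), and the mean was 1.97 times that of the wild type. The miRNA gene *Mir33*, a repressor of cholesterol export, lies within *Srebf2* on the same strand and is not in the count table.

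In the mevalonate branch, both enzymes measured here rose. *Idi1* (ENSMUSG00000058258, chromosome 13, 8884852 to 8891641), the isomerase that readies the isoprene units for joining, had 24.5, 34.2 and 17.7 CPM in wild-type and 58.9, 37.4 and 47.3 CPM in double mutant villi. The groups did not overlap, but the lowest double mutant mouse and the highest wild-type mouse were 3.27 CPM apart. The log2 fold change of *Idi1* was 0.91 ± 0.25 (adjusted p = 0.0249). It no longer passed when wild-type mouse 1 (adjusted p = 0.0608), wild-type mouse 3 (0.0569), double mutant mouse 1 (0.0773) or double mutant mouse 3 (0.0623) was left out, and it lay between 0.70 and 1.18 over all 6 such fits. *Fdps* (ENSMUSG00000059743, chromosome 3, 88897514 to 88905881), which joins the isoprene units into farnesyl diphosphate, had 75.2, 80.2 and 65.1 CPM in wild-type and 99.6, 123 and 118 CPM in double mutant villi. All 3 double mutant mice were above the wild-type mice. Its log2 fold change was 0.62 ± 0.13 (adjusted p = 0.00619), the smallest in size among the 7 genes.

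In the sterol branch, *Sqle* (ENSMUSG00000022351, chromosome 15, 59146632 to 59162747), which oxidises squalene at a rate-limiting step, had 57.2, 99.4 and 70.9 CPM in wild-type and 136, 136 and 125 CPM in double mutant villi. Wild-type mouse 2 was the highest of its group, 25.8 CPM below the lowest double mutant mouse. The log2 fold change was 0.81 ± 0.19 (adjusted p = 0.0113). *Cyp51* (ENSMUSG00000001467, chromosome 5, 4081145 to 4104746), which removes a methyl group from lanosterol, had 91.6, 111 and 66.6 CPM in wild-type and 249.3, 216 and 235 CPM in double mutant villi. The lowest double mutant mouse was 105 CPM above the highest wild-type mouse. *Cyp51* had the largest rise of the 4 enzymes measured, with a log2 fold change of 1.38 ± 0.18 (adjusted p = 0.000823) and a mean 2.60 times that of the wild type.

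The transporters moved in opposite directions. *Npc1l1* (ENSMUSG00000020447, chromosome 11, 6111016 to 6130146) had 1846, 2015 and 1775 CPM in wild-type villi and 716, 524 and 700.3 CPM in double mutant villi. All 3 double mutant mice were far below the wild-type mice, and their mean was 34.4% of the wild-type mean. The log2 fold change was -1.54 ± 0.15 (adjusted p = 0.000255). Set against the sum of the 12 enterocyte markers, a ratio chosen after the values were seen, *Npc1l1* came to 3.25%, 3.84% and 3.67% in wild-type and 2.42%, 1.81% and 2.34% in double mutant villi. The part of the enterocytes in the difference was not tested.

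*Abca1* (ENSMUSG00000015243, chromosome 4, 53043659 to 53172767), which loads cellular cholesterol onto apolipoprotein A-I, had 2.87, 2.34 and 1.82 CPM in wild-type and 31.3, 16.8 and 33.6 CPM in double mutant villi. It was the gene with the largest fold change among the 7, 3.53 ± 0.31 on the log2 scale (adjusted p = 0.00019), a fitted fold change of 11.5. Double mutant mouse 2 was the lowest of its group, still 13.9 CPM above the highest wild-type mouse, and it was the lowest in *Npc1l1* too. The wild-type levels rest on 69, 43 and 36 reads. ABCA1 is also made by macrophages, and the 8 immune markers summed to 39.3 to 76.7 CPM in wild-type and 25.7 to 38.2 CPM in double mutant villi. The macrophage markers among them, *Cd68*, *Csf1r* and *Lyz2*, were at most at 1.04 CPM in every mouse, and the part of macrophages in the *Abca1* level was not tested.

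**Figure D1:**
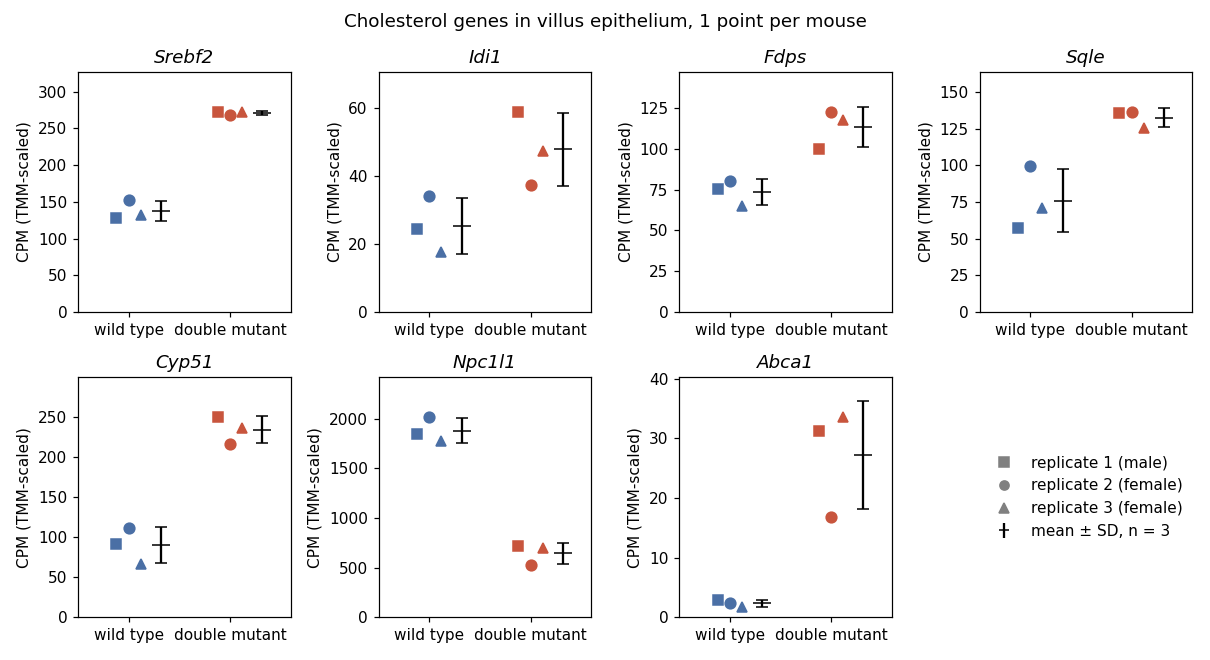
Each panel gives 1 gene, with TMM-scaled CPM on a linear axis from 0, 1 point per mouse (squares, replicate 1; circles, replicate 2; triangles, replicate 3) and the mean ± SD (n = 3) beside each group. The groups do not overlap in any panel; the closest approach is *Idi1* (34.2 against 37.4 CPM), and *Npc1l1* is the panel in which the double mutant mice are lower.

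Of the 7 genes, then, 6 were higher and 1 was lower at an adjusted p of 0.05, against 19.7% and 17% of all genes tested. The groups did not overlap for any of the 7, against 52.4% of all genes not overlapping. The summed enterocyte markers were lower and the summed stem and progenitor markers higher in the same libraries, and their part in these differences was not tested. Without wild-type mouse 1, which was low in goblet and Paneth markers, the log2 fold changes were 0.93 for *Srebf2*, 0.64 for *Fdps*, 0.64 for *Sqle*, 1.39 for *Cyp51*, -1.55 for *Npc1l1* and 3.71 for *Abca1*, each with an adjusted p of at most 0.0102, and 0.88 for *Idi1* (adjusted p = 0.0608).

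**Figure D2:**
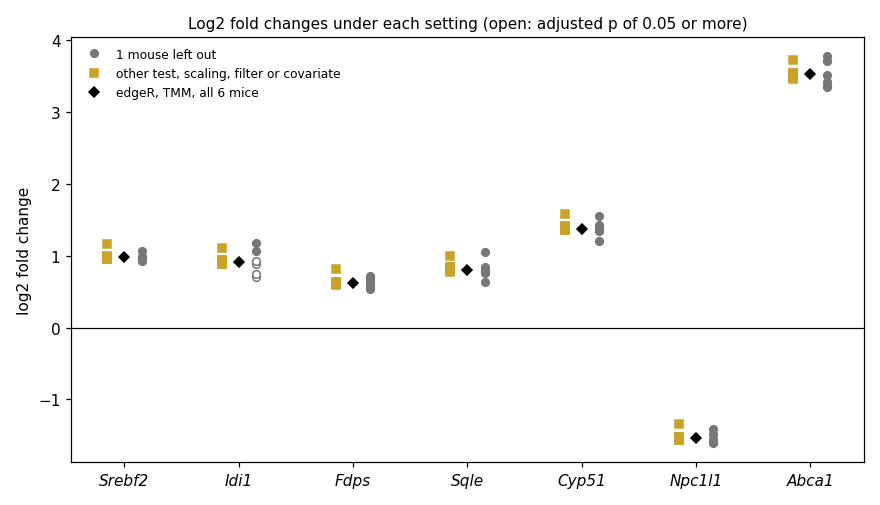
Log2 fold change (double mutant against wild type) of each gene under edgeR with TMM and all 6 mice (diamonds), under 8 other tests, scalings, filters or covariates (squares) and with 1 mouse left out in turn (circles), where open symbols have an adjusted p of 0.05 or more. Every gene keeps its direction in all of them, and the open symbols are 4 of the 6 left-out fits of *Idi1*.

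Levels were compared between genes per kilobase of exon. In wild-type villi *Npc1l1* was the highest, at 421 ± 27.6 CPM per kb (SD, n = 3 mice). *Fdps* came next at 59.6 ± 6.27 CPM per kb. *Srebf2* (27.6 ± 2.76), *Cyp51* (21.0 ± 5.21), *Sqle* (13.7 ± 3.89) and *Idi1* (8.89 ± 2.88 CPM per kb) followed, each overlapping its neighbour in range. *Abca1* was the lowest at 0.226 ± 0.051 CPM per kb. In double mutant villi the order was *Npc1l1* (145 ± 23.8), *Fdps* (91.8 ± 9.76), *Cyp51* (54.5 ± 3.90), *Srebf2* (54.2 ± 0.52), *Sqle* (23.9 ± 1.14), *Idi1* (16.7 ± 3.75) and *Abca1* (2.63 ± 0.88 CPM per kb). There, the ranges overlapped between *Cyp51* and *Srebf2* but between no other neighbours. *Npc1l1* and *Abca1* thus held the ends of the order in both groups, with a narrower span in the double mutant.

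**Figure D3:**
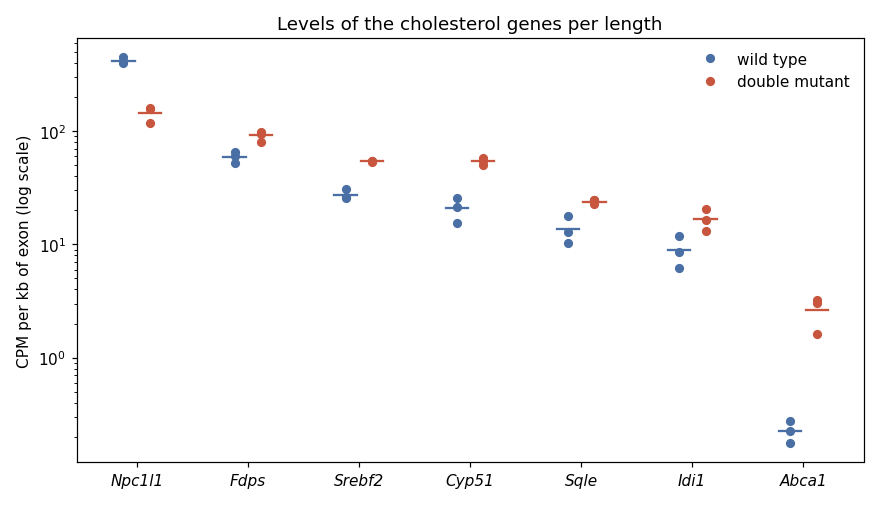
Level per kilobase of exon (CPM per kb, log axis) of each gene, with 1 point per mouse and a bar at the mean of the 3 mice of each group. *Npc1l1* is highest and *Abca1* lowest in both groups, and the distance between them is smaller in the double mutant (145 and 2.63) than in the wild type (421 and 0.226).

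The 7 genes sit in a pathway that was followed enzyme by enzyme. Of the 20 synthesis genes matched and tested, 13 were higher, none was lower and 7 did not pass, where 19.7% of all genes were higher. Their median log2 fold change was 0.60, beside 0.02 over all genes tested. Without *Idi1*, *Fdps*, *Sqle* and *Cyp51*, 9 of 16 were higher and the median was 0.55. The count fell to 8 when wild-type mouse 3 was left out. Summed over the enzymes, the level was 1372, 1451 and 1153 CPM in wild-type and 1823, 1784 and 1768 CPM in double mutant villi, so that the groups did not overlap.

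At the head of the pathway, *Acat2*, which condenses acetyl-CoA, was at 17.9 to 22.3 CPM in wild-type and 25.3 to 39.9 CPM in the double mutant (a difference of 0.74 ± 0.18 on the log2 scale, adjusted p = 0.0136). After mevalonate, *Mvd*, the decarboxylase, was at 17.8 to 23.8 and 38.5 to 57.3 CPM (1.24 ± 0.18, adjusted p = 0.00126). *Pmvk*, the kinase before it, differed by 0.58 ± 0.17 (adjusted p = 0.0263). *Mvk*, which adds the first phosphate, had a similar value with a wider error, 0.58 ± 0.21, and did not pass (adjusted p = 0.0552).

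Among the enzymes that make squalene and lanosterol, *Fdft1*, squalene synthase, was at 48.2 to 57.3 CPM in wild-type and 82.2 to 91.1 CPM in double mutant villi (0.69 ± 0.11, adjusted p = 0.0022). It overlaps *Ctsb*, an abundant gene of the opposite strand, and the strand setting of the counting is not given in the sources used here. *Lss*, which closes the sterol rings, was at 17.4 to 24.8 and 34.7 to 45.1 CPM (0.93 ± 0.16, adjusted p = 0.0032). Both groups were apart for each of these enzymes, as they were for *Sqle* between them.

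Between lanosterol and cholesterol the enzymes differed by step. *Lbr*, a sterol reductase that is also the lamin B receptor of the nuclear envelope, was at 7.79 to 10.7 CPM in wild-type and 24.1 to 25.8 CPM in double mutant villi (1.44 ± 0.15, adjusted p = 0.000372). *Tm7sf2*, the second reductase of the same step, differed by 0.43 ± 0.14 (adjusted p = 0.0395) and shares sequence with an overlapping gene on its strand. *Nsdhl* (0.73 ± 0.14, adjusted p = 0.00488) and *Msmo1* (0.52 ± 0.13, adjusted p = 0.0162), which take part in removing methyl groups after *Cyp51*, rose as well. *Hsd17b7*, their partner, had a value of 0.47 ± 0.18 (adjusted p = 0.0726). *Ebp*, *Sc5d* and *Dhcr7*, which act late in the pathway, did not pass the test. The values were 0.04 ± 0.12 for *Ebp* (adjusted p = 0.838), -0.09 ± 0.11 for *Sc5d* (0.52) and 0.30 ± 0.16 for *Dhcr7* (0.176). The 13 enzymes called thus run from *Acat2* to *Nsdhl*, with *Mvk* among them not called. Of those outside the 7 genes, *Mvd*, *Fdft1*, *Lss*, *Lbr* and *Nsdhl* passed with any mouse left out. *Acat2* was lost without wild-type mouse 3 or double mutant mouse 2 (adjusted p up to 0.0551), *Msmo1* without wild-type mouse 3 (0.055), and *Pmvk* without wild-type mouse 2 or 3 or double mutant mouse 2 or 3 (up to 0.101). *Tm7sf2* passed only without wild-type mouse 1 (adjusted p up to 0.134 in the other fits). *Mvk* (0.00991) and *Dhcr7* (0.0286) passed without wild-type mouse 1, and *Hsd17b7* (0.0356) without wild-type mouse 2.

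**Figure D4:**
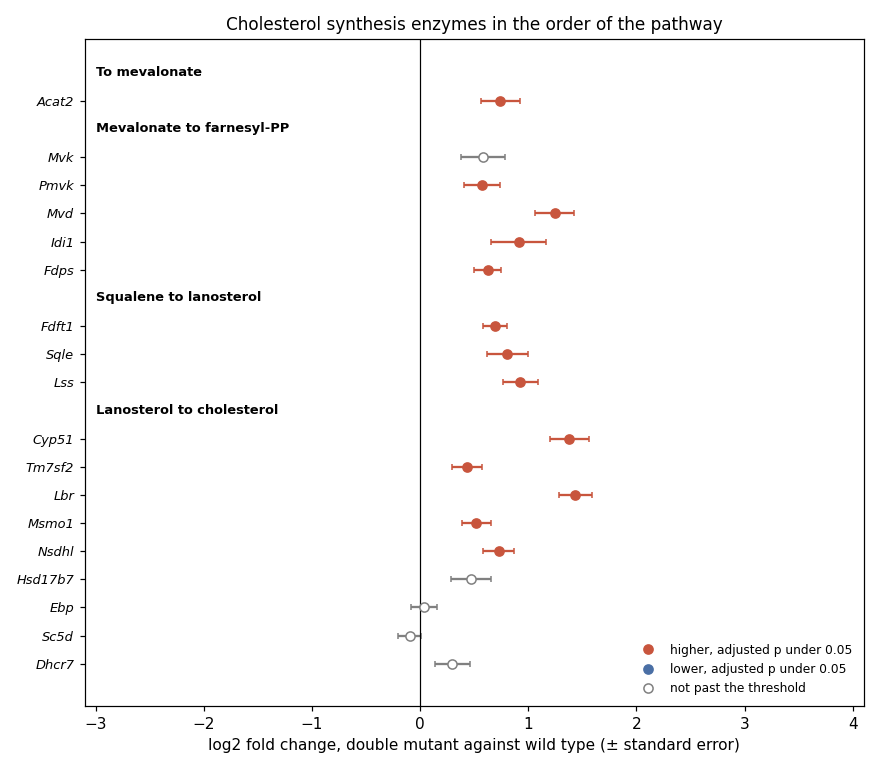
Log2 fold change (double mutant against wild type) with its standard error for 18 of the 20 synthesis enzymes tested, listed from the first step to the last, where filled points passed an adjusted p of 0.05 and open points did not. The filled points, 13 in all and all above 0, lie between *Acat2* and *Nsdhl*; *Mvk* and the last 4 enzymes shown are open.

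Of 14 genes that regulate the pathway, 5 were higher, 1 was lower and 8 did not pass, with a median of 0.21, where 19.7% of all genes tested were higher and 17% lower. *Mbtps2*, a protease that releases SREBP from the membrane, differed by 0.63 ± 0.18 (adjusted p = 0.0226). *Srebf1*, the gene of the related factor for fatty acid synthesis, differed by 0.32 ± 0.10 (adjusted p = 0.0341), and *Rnf145*, a ubiquitin ligase of sterol control, by 0.62 ± 0.21 (adjusted p = 0.049). *Insig2*, one of the retention proteins, was lower, at 45.4 to 52.8 CPM in wild-type and 30.7 to 34.8 CPM in double mutant villi (-0.61 ± 0.12, adjusted p = 0.00457). *Insig1* (0.16 ± 0.13, adjusted p = 0.378) and *Scap* (0.25 ± 0.11, adjusted p = 0.119) did not pass. *Srebf1*, *Mbtps2* and *Rnf145* each passed in at most 3 of the 6 fits with a mouse left out, so that the count of higher genes ranged from 2 (without wild-type mouse 3) to 4. It was 3 without wild-type mouse 2, double mutant mouse 2 or double mutant mouse 3.

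Of 14 genes of uptake, intracellular transfer and esterification, 2 were higher, 6 were lower and 6 did not pass, with a median of -0.26 beside 0.02 over all genes. Of all genes tested, 19.7% were higher and 17% lower, so that the 2 higher genes were close to the share over all genes. The genes of the paired lysosomal exporters of cholesterol were split: *Npc1* was at 34.9 to 44.9 and 13.1 to 17.6 CPM (-1.39 ± 0.16, adjusted p = 0.000508), and *Npc2* at 55.9 to 66.4 and 83.2 to 93.7 CPM (0.51 ± 0.11, adjusted p = 0.0095). *Npc1* overlaps a gene of the opposite strand at a similar level. *Gramd1b*, which carries cholesterol from the plasma membrane to the endoplasmic reticulum, was at 142 to 155 and 54.0 to 74.6 CPM (-1.24 ± 0.14, adjusted p = 0.000422), and *Gramd1a* of the same family differed by -0.73 ± 0.22 (adjusted p = 0.0282). *Soat2*, the enterocyte enzyme that esterifies absorbed cholesterol for packing into chylomicrons, was at 303 to 384 and 196 to 270.3 CPM (-0.48 ± 0.15, adjusted p = 0.0374). *Stard3*, a sterol carrier of late endosomes, differed by -0.39 ± 0.12 (adjusted p = 0.0358). The count of lower genes was 3 without wild-type mouse 2, double mutant mouse 1 or double mutant mouse 3, and *Npc1l1*, *Npc1* and *Gramd1b* passed in all 6 such fits. *Soat2* passed in 2 of them, and *Stard3* and *Gramd1a* in 1 each. Scaled by library totals alone, the list had 4 genes higher and 3 lower. The summed enterocyte markers were lower in the same libraries, and their part was not tested.

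In the efflux list of 5 genes, *Abca1* was the only one higher, and *Apoa1*, the apolipoprotein that accepts its cholesterol, was lower. These counts, 1 of 5 in each direction, were close to the 19.7% higher and 17% lower over all genes tested. *Apoa1* had 8762, 7853 and 9633 CPM in wild-type and 4795, 6965 and 6218 CPM in double mutant villi (-0.55 ± 0.16, adjusted p = 0.0306). This call was lost without wild-type mouse 3, double mutant mouse 1 or double mutant mouse 3, with adjusted p up to 0.0913, and also under scaling by library totals alone. *Abcg5* (-0.20 ± 0.12, adjusted p = 0.23) and *Abcg8* (-0.17 ± 0.14, adjusted p = 0.37), the pair that returns sterols to the lumen, did not pass, and they overlap on opposite strands. *Abcg1*, the partner of *Abca1* in export, was at 0.37 to 0.71 CPM in wild-type and 0.37 to 0.52 CPM in double mutant villi. The difference of *Abcg1* was -0.34 ± 0.48 (adjusted p = 0.619), so that a change of moderate size could not be seen at this level.

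Of 11 genes in side branches and in the fatty acid pathway that SREBP and LXR also control, 5 were higher and none was lower, with a median of 0.84, beside 19.7% higher and 17% lower over all genes tested. *Fasn*, fatty acid synthase, was at 25.8 to 40.5 CPM in wild-type and 83.0 to 91.2 CPM in double mutant villi (1.41 ± 0.17, adjusted p = 0.000549). *Scd2*, a desaturase, had 2.83, 12.8 and 10.97 CPM in wild-type and 106, 110 and 75.0 CPM in double mutant villi (3.46 ± 0.56, adjusted p = 0.00616), and wild-type mouse 1 was the lowest. The desaturases *Fads1* (1.67 ± 0.47, adjusted p = 0.0288) and *Fads2* (1.14 ± 0.35, adjusted p = 0.0358) and *Pdss1*, which starts the tail of coenzyme Q (0.84 ± 0.17, adjusted p = 0.00635), rose as well. *Fads1* and *Fads2* each passed in 2 of the 6 fits with a mouse left out, and the count was 3 without any 1 of the double mutant mice.

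**Figure D5:**
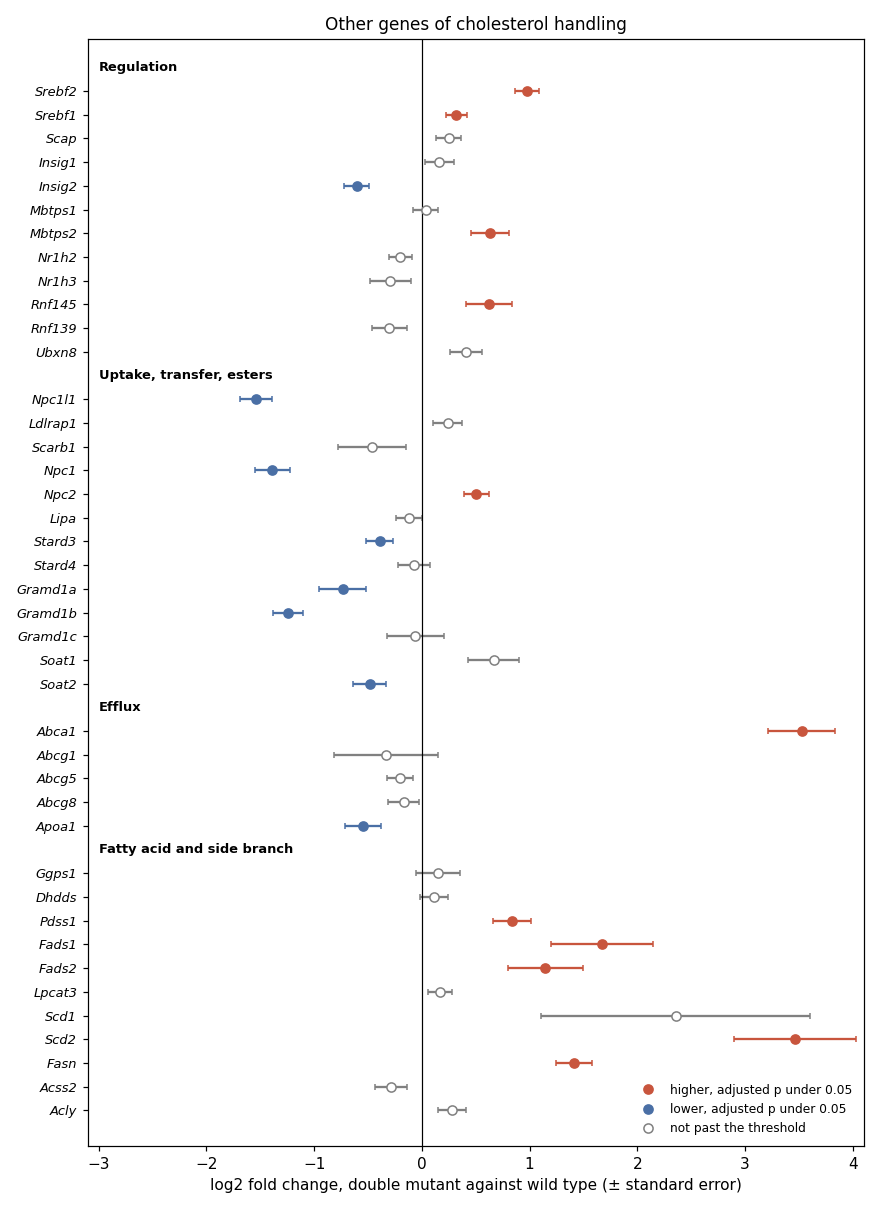
Log2 fold change (double mutant against wild type) with its standard error for tested genes of regulation, of uptake, transfer and esters, of efflux, and of fatty acid and side branches, where filled points passed an adjusted p of 0.05 and open points did not. *Abca1* (3.53) and *Scd2* (3.46) lie farthest to the right, and *Npc1l1* (-1.54), *Npc1* (-1.39) and *Gramd1b* (-1.24) farthest to the left.

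Within the groups, mice that were high for 1 gene of the set were high for some of the others. Pearson's r was taken over deviations of log2 CPM from the group mean in the 6 mice. Its highest values were 0.94 between *Srebf2* and *Sqle*, 0.94 between *Idi1* and *Cyp51*, 0.86 between *Npc1l1* and *Abca1* and 0.76 between *Idi1* and *Npc1l1*. All other pairs were lower. Among them, r was 0.18 between *Idi1* and *Fdps*, 0.04 between *Srebf2* and *Abca1* and -0.25 between *Fdps* and *Npc1l1*. The lowest was -0.26, between *Sqle* and *Abca1*. These are descriptions over 6 libraries, in which all genes of a mouse share depth and composition. Against the mean profile of *Idi1*, *Fdps*, *Sqle* and *Cyp51*, and among 7857 other genes with a mean of at least 10 CPM, the most alike over the 6 mice were *Cct6a* (r = 0.995), *Bclaf1* (0.989), *Nup155* (0.989), *Naa50* (0.989) and *Plbd2* (0.988), a profile that holds the difference between the groups. Of the other synthesis enzymes, *Fdft1* at place 57 (0.967) and *Lss* at 62 (0.967) came highest. Others lay far down the order, such as *Acat2* at 1237 (0.806), *Ebp* at 3520 (0.014) and *Sc5d* at 4650 (-0.475). By deviations within the groups the most alike were *Ccdc127* (0.997), *Baz1b* (0.994), *Mis12* (0.989), *Zfp207* (0.982) and *Dvl3* (0.980). *Insig1* was at place 136 (0.852) of that order, although it did not pass the test between the groups. Synthesis enzymes were spread over the order within groups too, with *Fdft1* at 296 (0.753), *Acat2* at 3552 (0.111) and *Ebp* at 6495 (-0.453).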

How the data were processed

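Groups, sex and replicate numbers were taken from the sample labels. HISAT2 (aligned to mm9) and featureCounts were used by the authors, who deposited raw counts per gene without normalization, 1 column for each mouse. The labels give 0.5 mM EDTA and the methods 5 mM EDTA for isolating the epithelium. Genes were named from the GENCODE annotation of mm9 (*Msmo1* is listed there as *Sc4mol*). Rows numbered outside the annotation (336 of 20409) took 0.214% to 0.27% of the counts.

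Counts were kept by filterByExpr with the group, scaled by TMM and tested with edgeR 4.0.16 (R 4.3.3; glmQLFit, robust, and glmQLFTest), with Benjamini-Hochberg adjustment over the 13346 genes tested. A standard error is the size of the log2 fold change over √F of that test. The p-values measure the spread between mice, and a two-sided exact permutation test of 3 against 3 cannot go below 0.1. Alternatives were DESeq2 1.42.0, limma-voom (limma 3.58.1), RLE factors, library size alone, 2 other filters, sex, a replicate block and each mouse left out. CPM per kb used the union of exons.

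The 8 genes and all lists were chosen with earlier results of these data known. Named are the 8 genes, the synthesis list, called genes of the other lists, *Insig1*, *Scap*, *Abcg5* and *Abcg8*, the 5 most alike genes by each measure, and the targeted genes. Some genes of this rule are counted in the lists but not reported here by name. Enteroendocrine markers (6 genes) summed to 224 to 311 CPM in wild-type and 96.1 to 105 CPM in double mutant villi. Counts of overlapping genes are uncertain.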

Additional observations from a re-analysis of the deposited data

How the results depend on the processing

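The directions of the 7 genes held under all 8 other settings and all 6 fits with a mouse left out, and the calls held except for *Idi1* (log2 fold change 0.70 to 1.18 with a mouse left out). Scaling by library size alone moved the median of all genes from 0.02 to 0.22, the genes called lower from 2273 to 1425 and the share of calls that were higher from 53.7% to 72.4%. It gave 4 higher and 3 lower genes of uptake and 0 lower genes of efflux, and turned values that were not called: *Sc5d* (0.10), *Lipa* (0.077), *Stard4* (0.12), *Gramd1c* (0.14) and *Abcg8* (0.022). Without the low-count filter, 3 genes of the fatty acid and side branches were higher. With a mouse left out, other values that were not called turned: *Ebp* (-0.037 to 0.13), *Mbtps1* (-0.035 to 0.098), *Stard4* (-0.22 to 0.068), *Gramd1c* (-0.23 to 0.31) and *Ggps1* (-0.064 to 0.28). The counts then ran from 8 to 14 for synthesis (higher), 2 to 4 and 1 to 2 for regulation (higher and lower), 3 to 5 for uptake (lower), 0 to 1 for efflux (lower), 3 to 5 for the side branches (higher), 1812 to 2783 for all genes (higher) and 1630 to 2361 (lower). Apart from the constructed loss of samples, the cause was not tested.

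The replicate numbers did not pair the mice: deviations of same-numbered mice correlated at 0.02, -0.11 and 0.01, and not every mouse was closest to its own number. With the replicate block, 3834 genes were called against 4905, with 3 higher genes of regulation, 3 lower of uptake and 0 lower of efflux, and all 7 genes passed. Levels near the floor, as for *Abcg1*, limit what can be seen.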
